A study of Mus musculus with 8 samples.

Results

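The 6 genes described here, Stom, St6galnac1, Mmp25, Ptprf, Ermn and 8030451A03Rik, were selected on their splenic counts, as genes sharply higher in KO than in WT eTreg cells of the spleen, out of 49212 genes in the count files. The choice set no numerical limit, and it used both KO and both WT splenic libraries, so the splenic values below are a description and the tumor libraries carry the test. Effector Treg (eTreg) cells were sorted as CD45+CD44+YFP+CD4+CD3+ cells from the spleens and the tumors of mice with subcutaneous B16.OVA melanoma, and the cells from tumors are called TIL (tumor-infiltrating lymphocytes). WT mice were FoxP3YFP-Cre and KO mice were Prdm1fl/flFoxP3YFP-Cre, both on C57BL/6. Prdm1, the gene of the transcription factor Blimp1, is thus deleted by a Cre that the Foxp3 locus drives, and the WT mice carry the same Cre and reporter. All mice were immunized with NP-OVA, in CFA on day 0 and then in IFA on day 7, and tumors measured at most 1.5 cm3. Each of the 4 groups, KO spleen, WT spleen, KO TIL and WT TIL, has 2 libraries, and nothing in the labels says that they came from separate mice, so p-values measure only the spread between these libraries. Nor do the labels say whether a spleen library and a TIL library share a mouse. Depth was 27834676 to 43903859 counts on genes per library. Levels are CPM, read counts scaled to a common library total after TMM correction, which evens out differences in composition, and 3 counts, taken as the floor, equal 0.0644 to 0.112 CPM by library. Floors and counting intervals cover counting error only.

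The genotype and cell type labels were checked first. Prdm1 was at 40.7 and 53.4 CPM in the libraries labelled KO spleen and at 54.1 and 21.0 CPM in those labelled WT spleen, so the splenic groups overlapped. In TIL, Prdm1 was at 90.7 and 75.1 CPM in the libraries labelled KO and at 108 and 192 CPM in those labelled WT. Counts were summed over all exons of Prdm1, including those outside a floxed part, so this level does not check the deletion, and KO and WT below stand for what the libraries are labelled. The 9 Treg markers summed to between 2119 and 2877 CPM in the splenic libraries, to 6799 and 9384 CPM in WT TIL and to 1044 and 1542 CPM in KO TIL. In KO TIL 8 of the 9 were lower than in WT TIL without overlap, beside 19.4% of all genes tested in TIL. KO TIL 1 stood apart, with 10 macrophage markers summing to 15889 CPM against 1817 in KO TIL 2, 3308 and 562 in WT TIL and 298 to 2188 in spleen, and with 8 T cell markers at 1952 CPM against 6438 to 10993 in the other 7 libraries. KO TIL 2 differed from WT TIL as well, with Cd4 at 66.2 CPM against 148 in KO TIL 1 and 807 and 1086 in WT TIL, and with both CD8 T cell markers summing to 2220 CPM against 406 in KO TIL 1 and 148 and 48.2 in WT TIL. The 7 NK cell markers summed to 803 and 236 CPM in KO TIL and to 175 and 43.1 CPM in WT TIL. Of the 7, 5 were higher in KO without overlap, beside 18.0% of all genes tested in TIL. The part of such cells in the TIL values below was not tested. In bulk RNA, fewer cells of a type and less RNA per cell cannot be told apart.

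The genes belong to different families. Stom encodes stomatin, an integral membrane protein of lipid rafts that forms oligomeric scaffolds at the inner leaflet. St6galnac1 encodes a Golgi sialyltransferase that adds sialic acid to the first GalNAc of O-linked glycans on proteins. Mmp25 encodes a matrix metalloproteinase held at the cell surface by a lipid anchor and known from neutrophils, and Ptprf encodes LAR, a receptor-type tyrosine phosphatase with an adhesion-like outer part. Ermn encodes ermin, an actin-binding protein with similarity to ezrin, radixin and moesin, best known from oligodendrocytes. 8030451A03Rik is a processed transcript with no protein in the GENCODE M21 annotation. Blimp1 is a zinc finger repressor that marks effector lymphocytes, Treg cells among them.

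On GRCm38 the 6 genes lie on 4 chromosomes. Stom is at chr2:35313986-35336976 and Ermn at chr2:58045113-58052864, both on the minus strand. St6galnac1 is at chr11:116765025-116775507, Mmp25 at chr17:23629458-23645269 and Ptprf at chr4:118208213-118291405, again all on the minus strand. 8030451A03Rik is at chr4:63979854-64149924 on the plus strand. Stom, St6galnac1, Mmp25 and Ptprf share no exon bases with another gene. Ermn shares 237 exon bases with Galnt5 on the opposite strand, which had 0 to 8 counts in any library. 8030451A03Rik shares 176 exon bases with Tnc, the gene of the matrix protein tenascin C on the opposite strand, which had 1 to 526 counts. Whether counting used strand is not stated, so reads over those 176 bases cannot be assigned to 8030451A03Rik or Tnc.

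RefSeq promoter sequences on GRCm38.p6 were matched for 5 of the 6 genes, and the 250 bases before the start were searched on both strands for 3 motifs. They were GTGAAAG, a core of Blimp1 binding sites, TAGGTCA, a nuclear receptor site, and TTCNNNGAA, a STAT site, none of which overlaps another in the windows matched. Of all 32851 windows of this length, 3.57% held GTGAAAG, 2.23% held TAGGTCA and 7.02% held TTCNNNGAA. The windows of Stom, Mmp25, Ptprf and Ermn held none of the 3, and St6galnac1 was not matched. 8030451A03Rik held 1 match, a TTCNNNGAA on the plus strand at bases -122 to -114 from the start, in capitals below. The windows of the 3 genes whose TIL groups did not overlap are printed 5′ to 3′ on the strand of the gene.
Ptprf, chr4:118291398-118291647, minus strand: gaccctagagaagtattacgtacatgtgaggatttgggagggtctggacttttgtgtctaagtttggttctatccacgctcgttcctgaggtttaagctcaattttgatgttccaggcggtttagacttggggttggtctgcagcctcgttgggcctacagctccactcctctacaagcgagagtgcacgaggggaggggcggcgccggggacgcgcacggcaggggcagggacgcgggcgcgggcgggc
Ermn, chr2:58052865-58053114, minus strand: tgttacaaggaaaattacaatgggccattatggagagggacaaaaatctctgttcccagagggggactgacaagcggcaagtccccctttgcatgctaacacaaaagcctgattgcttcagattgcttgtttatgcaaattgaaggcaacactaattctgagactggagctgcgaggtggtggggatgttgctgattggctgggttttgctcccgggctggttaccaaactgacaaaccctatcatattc
8030451A03Rik, chr4:63984481-63984730, plus strand: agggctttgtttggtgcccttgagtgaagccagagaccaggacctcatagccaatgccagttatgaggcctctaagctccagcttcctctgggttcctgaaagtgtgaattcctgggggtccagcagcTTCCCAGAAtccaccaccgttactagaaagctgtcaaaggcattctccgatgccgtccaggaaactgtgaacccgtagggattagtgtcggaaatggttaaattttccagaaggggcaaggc
The RefSeq start of 8030451A03Rik lies inside the gene as counted, so its window is not upstream of all its transcripts. GC content was 59.2% in the Ptprf window, 47.2% in the Ermn window and 52% in that of 8030451A03Rik.

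In spleen, both KO libraries lay above both WT libraries for all 6 genes, which is what chose them. Stom was at 162 and 136 CPM in KO spleen and at 15.7 CPM in both WT spleen libraries. Its mean of 149 ± 18.7 CPM (SD, n = 2) in KO was 9.49 times that in WT. Mmp25 was at 94.4 and 71.7 CPM in KO spleen and at 10.6 and 6.10 CPM in WT spleen, 9.95 times higher by the means. These were the most abundant of the 6 in splenic KO cells, and they were measurable in every WT library too.

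Ptprf was at 24.1 and 16.8 CPM in KO spleen and at 2.51 and 2.32 CPM in WT spleen. Ermn was at 17.9 and 14.6 CPM in KO spleen and at 0.299 and 0.535 CPM, from 10 and 15 counts, in WT spleen. The ratio of the mean Ermn levels was 38.9, and that of the summed counts per library size was 40.2 with an exact 95% counting interval of 27.1 to 62.3. 8030451A03Rik was at 7.92 and 8.13 CPM in KO spleen and at 0.748 and 0.606 CPM in WT spleen, and its KO libraries were the closest pair of the 6 genes.

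St6galnac1 was near the floor outside KO spleen. It was at 8.01 and 4.97 CPM in KO spleen, from 373 and 196 counts, and at 0.0898 and 0.0713 CPM in WT spleen, from 3 and 2 counts. The ratio of the summed counts per library size was 81.3, with an exact 95% counting interval of 34.6 to 251. In TIL it had 1 and 0 counts in the KO libraries and 3 and 0 in the WT libraries, all at or under the floor, so no fold was taken there. The 569 splenic KO counts of this sialyltransferase therefore had no counterpart in the TIL libraries of either genotype at this depth.

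**Figure D1:**
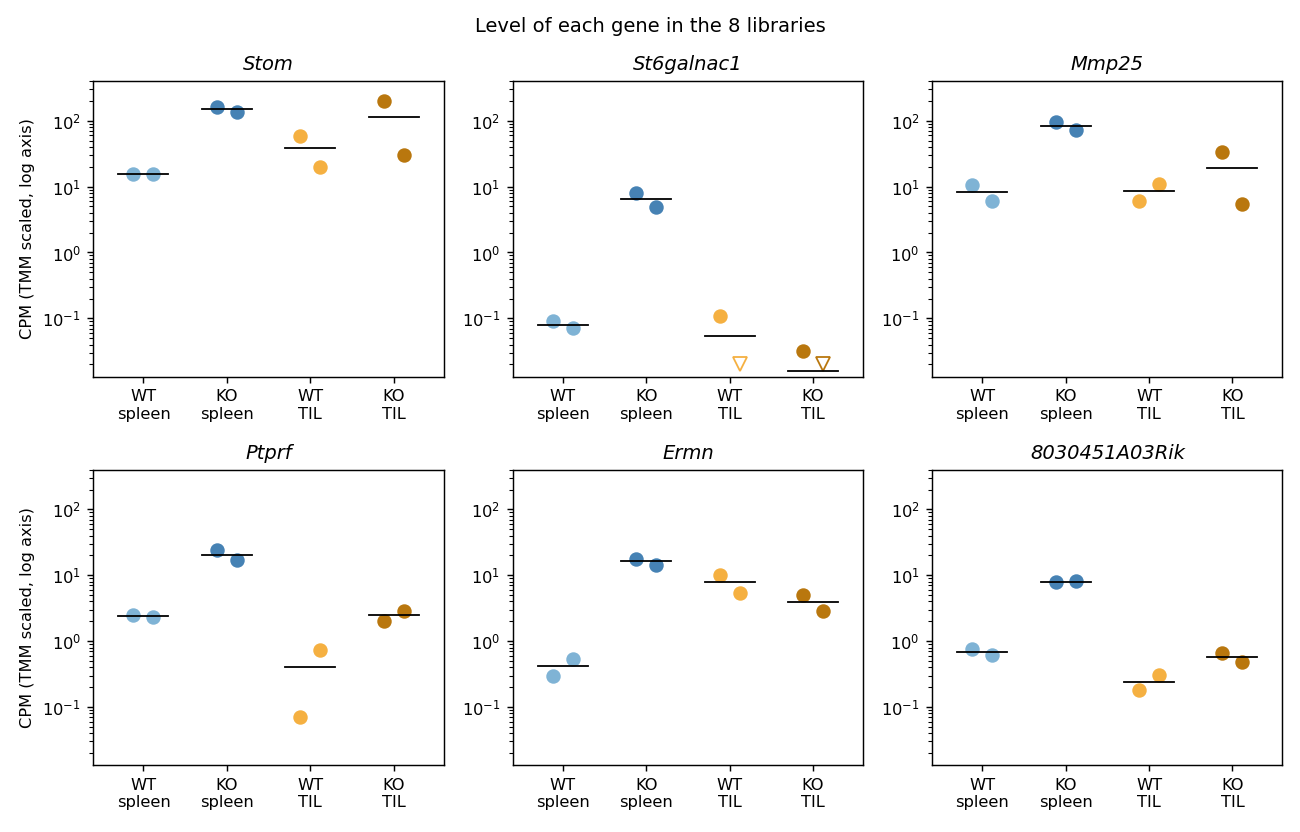
Level of each gene in CPM (log axis) in the 8 libraries, with replicate 1 left of replicate 2 in each group, a filled point per library, a black line at the group mean and an open triangle, set at 0.02 CPM, for a library with 0 counts. KO spleen lies above WT spleen for all 6 genes, while in TIL the groups overlap for Stom, Mmp25 and St6galnac1 and Ermn is higher in WT.

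Per kb of exon, the 6 genes spanned a wide range in KO spleen. Stom had the highest mean level at 52.7 ± 6.61 CPM per kb (SD, n = 2), followed by Mmp25 at 24.6 ± 4.76, Ermn at 4.46 ± 0.641, St6galnac1 at 2.71 ± 0.90, Ptprf at 2.24 ± 0.563 and 8030451A03Rik at 1.97 ± 0.0362 CPM per kb. St6galnac1, Ptprf and 8030451A03Rik lay within the spread of their libraries in that order. In WT spleen the order per kb was Stom at 5.55, Mmp25 at 2.47, Ptprf at 0.265, 8030451A03Rik at 0.166, Ermn at 0.115 and St6galnac1 at 0.0337 CPM per kb. Ermn thus ranked after Ptprf and 8030451A03Rik in WT spleen and before both in KO spleen.

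The splenic difference was fitted in the same way as the tumor one to give its size. The log2 fold change of KO over WT was 3.24 (standard error 0.35) for Stom, 6.26 (0.69) for St6galnac1, 3.31 (0.42) for Mmp25, 3.07 (0.42) for Ptprf, 5.27 (0.54) for Ermn and 3.55 (0.50) for 8030451A03Rik. The fitted value of St6galnac1 depends on the prior count, since WT had so few counts. Their median was 3.43, against -0.02 over the 16583 genes tested. Both KO libraries lay above both WT libraries for 16.4% of genes tested, and 1.53% had an unadjusted p under 0.05 with a higher KO level in edgeR's quasi-likelihood test. That test called 0 genes (0% of 16583) past both thresholds (Benjamini-Hochberg adjusted p under 0.05, log2 fold change beyond 1 in either direction), with 489 at an unadjusted p under 0.05, while DESeq2's Wald test called 0.395% of genes as higher and all 6 of these. Nothing is read from these shares, because the same contrast chose the genes.

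The tumor comparison asked whether the same genes differed between KO and WT eTreg cells in libraries that the rule of choice did not use. Earlier results of these data were known when the genes were chosen, so it may not be fully independent of the choice. In TIL, both KO libraries lay above both WT libraries for 2 of the 6 genes (Ptprf and 8030451A03Rik), Ermn was lower in both, and the groups overlapped for Stom, Mmp25 and St6galnac1. Over the 15935 genes tested, both KO libraries lay above both WT libraries for 18.0% and below them for 19.4%. None of the 5 genes tested passed in edgeR's quasi-likelihood test, which called 0 of all genes (0%), with 1573 at an unadjusted p under 0.05, of which those higher in KO were 6.34% of genes tested. None of the 5 reached an unadjusted p under 0.05 either. DESeq2's Wald test, which called 745 genes in TIL, 3.32% of its genes as higher and 1.14% as lower in KO, called none of the 6. St6galnac1 did not pass the expression filter and was not tested.

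Ptprf, the receptor phosphatase, came nearest to its splenic difference. It was at 2.00 and 2.92 CPM in KO TIL, from 63 and 78 counts, and at 0.0718 and 0.742 CPM in WT TIL, from 2 and 22 counts. Both KO libraries lay above both WT libraries, and the WT libraries differed from each other 10.3 times. The log2 fold change was 2.57 (SE 1.08), and the adjusted p was 0.534 with edgeR and 0.207 with DESeq2. The difference thus did not pass against the spread between libraries. Without WT TIL 2, when WT rests on 2 counts, it was 5.0 and without WT TIL 1 it was 1.71. Fitted on all 8 libraries, DESeq2 gave an adjusted p of 0.0122, past the threshold, while edgeR gave 0.236. The mean level in KO TIL, 2.46 ± 0.649 CPM (SD, n = 2), was next to that in WT spleen, 2.42 ± 0.139 CPM, and the KO spleen mean was 8.32 times that of KO TIL.

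8030451A03Rik was higher in KO TIL at a level close to the floor. It was at 0.666 and 0.486 CPM in KO TIL, from 21 and 13 counts, and at 0.180 and 0.304 CPM in WT TIL, from 5 and 9 counts. The KO libraries lay above the WT libraries, by a log2 fold change of 1.23 with a standard error of 0.74 (edgeR adjusted p = 0.692). The direction held without each library in turn, with log2 fold changes of 0.91 to 1.65. Its level in KO spleen was 13.9 times that in KO TIL by the means, and WT spleen lay above WT TIL 2.80 times.

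Ermn went the other way in the tumor. It was at 5.08 and 2.88 CPM in KO TIL, from 160 and 77 counts, and at 10.2 and 5.47 CPM in WT TIL. Both KO TIL libraries lay below both WT TIL libraries, opposite to spleen, where both KO libraries lay above. The TIL log2 fold change of -0.97 (standard error 0.57) did not pass (adjusted p = 0.684 from edgeR's test). It stayed below 0 without each library in turn, between -1.44 and -0.47. WT TIL had 18.7 times the WT splenic mean, 7.81 ± 3.32 against 0.417 ± 0.167 CPM (SD, n = 2), and no WT TIL library was within the range of the WT spleen libraries. The order of Ermn means was therefore KO spleen at 16.2, WT TIL at 7.81, KO TIL at 3.98 and WT spleen at 0.417 CPM, and the ranges of neighbours in that order did not overlap, with WT TIL (lowest 5.47) and KO TIL (highest 5.08) the closest. Among the oligodendrocyte markers, Mobp and Olig1 were at 0 in all 8 libraries, Mog was at 0.135, Olig2 at 0.214 and Mag at 6.25 CPM or less, and Mbp, which lymphocytes also express, was at 132 to 239 CPM.

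Stom, the membrane scaffold, had no common direction across the TIL libraries. It was at 201 and 30.4 CPM in KO TIL and at 57.9 and 19.5 CPM in WT TIL. KO TIL 1 was above all 3 other TIL libraries and KO TIL 2 lay between the WT libraries. The log2 fold change was 1.58 with an SE of 0.97 (edgeR adjusted p = 0.702), and without KO TIL 1 it turned to -0.35. Within both TIL groups, the library with more Stom was the one with more macrophage marker RNA, 15889 against 1817 CPM in KO and 3308 against 562 CPM in WT. The same order held for melanoma cell markers, at 3027 against 786 CPM in KO and 1958 against 1064 CPM in WT. It also held for NK cell, neutrophil and dendritic cell markers, while T cell and Treg markers had the opposite order. The order is thus not particular to macrophage markers. In spleen, where Stom was higher in KO, the macrophage markers summed to 298 and 807 CPM in KO and to 452 and 2188 CPM in WT. The part of such cells in the TIL levels was not tested.

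Mmp25, the anchored metalloproteinase, was also highest in KO TIL 1 among the TIL libraries. It was at 33.5 and 5.46 CPM in KO TIL and at 6.11 and 10.8 CPM in WT TIL. KO TIL 1 was above the WT libraries and KO TIL 2 below both. The log2 fold change was 1.19 with a standard error of 0.88 (edgeR adjusted p = 0.778), and without KO TIL 1 it turned to -0.63. The 12 neutrophil markers summed to 455 and 219 CPM in KO TIL and to 72.7 and 7.86 CPM in WT TIL. Of the 12, 8 were higher in KO without overlap, beside 18.0% of all genes tested in TIL. The part of neutrophils in the Mmp25 levels was not tested. In spleen those markers summed to 7.52 and 17.4 CPM in KO and to 1.17 and 25.4 CPM in WT, with overlap.

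**Figure D2:**
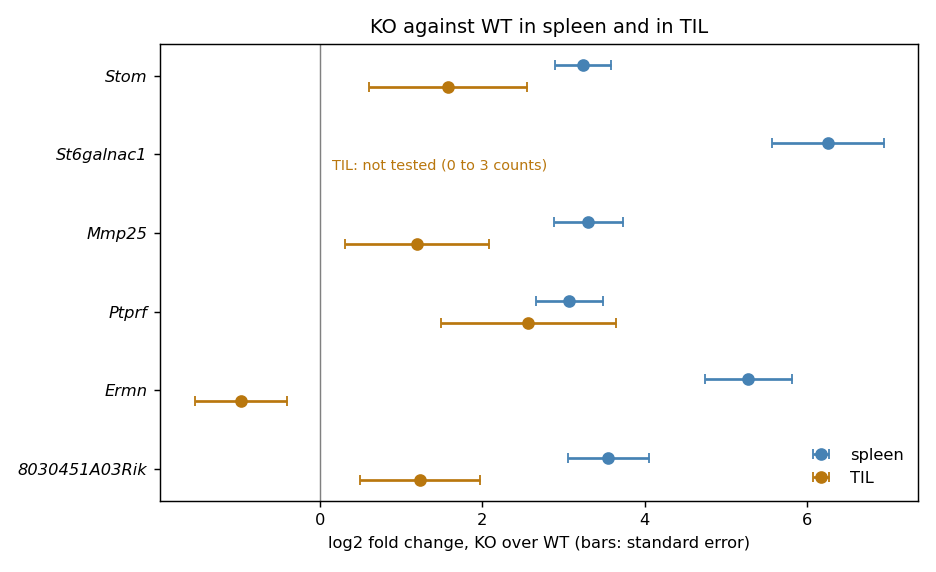
Log2 fold change of KO over WT for each gene in spleen (blue) and in TIL (brown), with bars for the standard error of edgeR's fit on the 4 libraries of each tissue. The splenic values lie between 3.07 and 6.26, while in TIL Ptprf is at 2.57, Ermn at -0.97 and St6galnac1 has no value.

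The median TIL log2 fold change of the 5 genes tested was 1.23, the value of 8030451A03Rik itself, against 0.04 over all genes tested. It is a description only, since the expression filter asks for enough counts in 2 libraries and Ptprf and 8030451A03Rik, low in WT TIL, met it through KO TIL, where they were higher. Without KO TIL 1, the macrophage-rich library, the median was -0.35, and KO TIL 2, with its CD8 T cell marker RNA, then stood alone for KO. With each of the other 3 TIL libraries left out the median was 0.91 to 1.96. Without KO TIL 1, Ptprf was at 2.82, 8030451A03Rik at 0.99 and Ermn at -1.44.

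**Figure D3:**
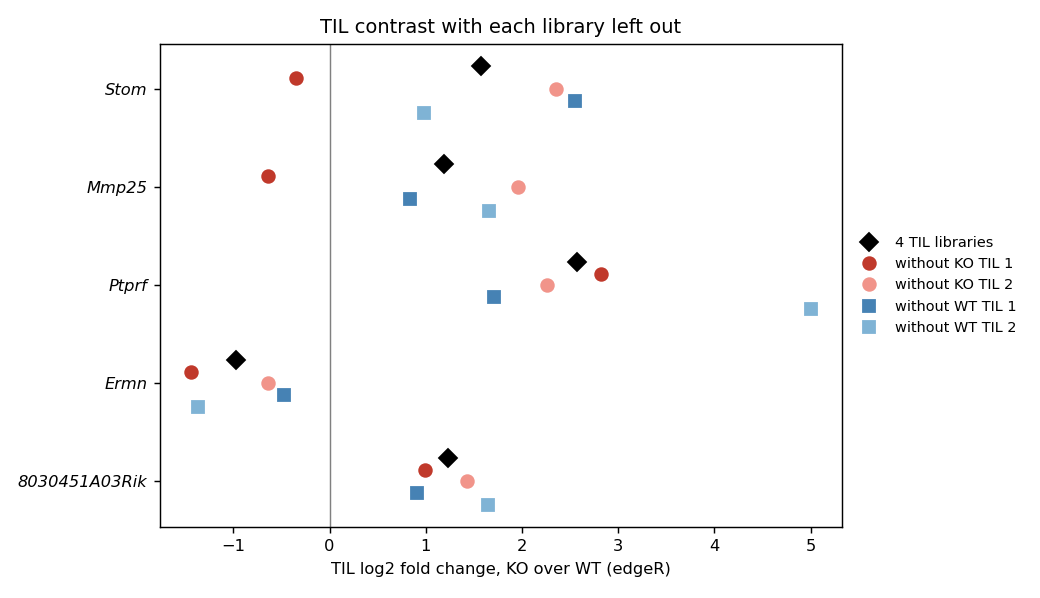
TIL log2 fold change of KO over WT from edgeR for the 5 genes tested, with all 4 TIL libraries (black diamonds) and with each library left out. Leaving out KO TIL 1 moves Stom from 1.58 to -0.35 and Mmp25 from 1.19 to -0.63, past 0, and the sign of the other 3 genes does not change.

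Over the 8 libraries, Pearson's r of log2 CPM was highest between St6galnac1 and 8030451A03Rik at 0.933 and between Ptprf and 8030451A03Rik at 0.917, and lowest between Ptprf and Ermn at 0.162 and between Stom and Ptprf at 0.395. These values describe libraries that share 2 KO splenic samples in which all 6 are high by choice, so r of 2 genes is raised by the choice itself. The mean of the centred log2 CPM of the 6 genes was 2.91 and 2.56 in KO spleen, 0.17 in KO TIL 1, -0.93 in KO TIL 2 and -1.14 to -1.27 in the 4 WT libraries.

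Among 17864 other genes, the 10 most like that mean profile had r of 0.929 to 0.976 over the 8 libraries. They were Il17re, Gemin4, Gm37758, Gpr180, A2m, Tmem176a, Igkv4-59, Igkv4-68, RP23-35O24.3 and Clic3. Il17re, a receptor chain for IL-17 family cytokines, led with 27.6 and 19.9 CPM in KO spleen, 1.14 and 1.11 in WT spleen, 1.97 and 0.935 in KO TIL and 0.395 and 0.675 in WT TIL. Tmem176a, a membrane protein gene, was at 157 and 170 CPM in KO spleen, 16.5 and 34.1 in WT spleen, 57.4 and 17.9 in KO TIL and 17.6 and 26.1 in WT TIL. Like Stom and Mmp25 it was high in KO TIL 1 and within or below the WT range in KO TIL 2. Gpr180 differed little in level, at 34.2 and 33.9 CPM in KO spleen and 25.5 to 28.0 CPM in the other 6 libraries, and Igkv4-59 and Igkv4-68 are immunoglobulin light chain segments of a family whose near-identical members can share reads. Gm37758, A2m, RP23-35O24.3, Clic3 and both Igkv genes were too low to be tested in TIL.

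**Figure D4:**
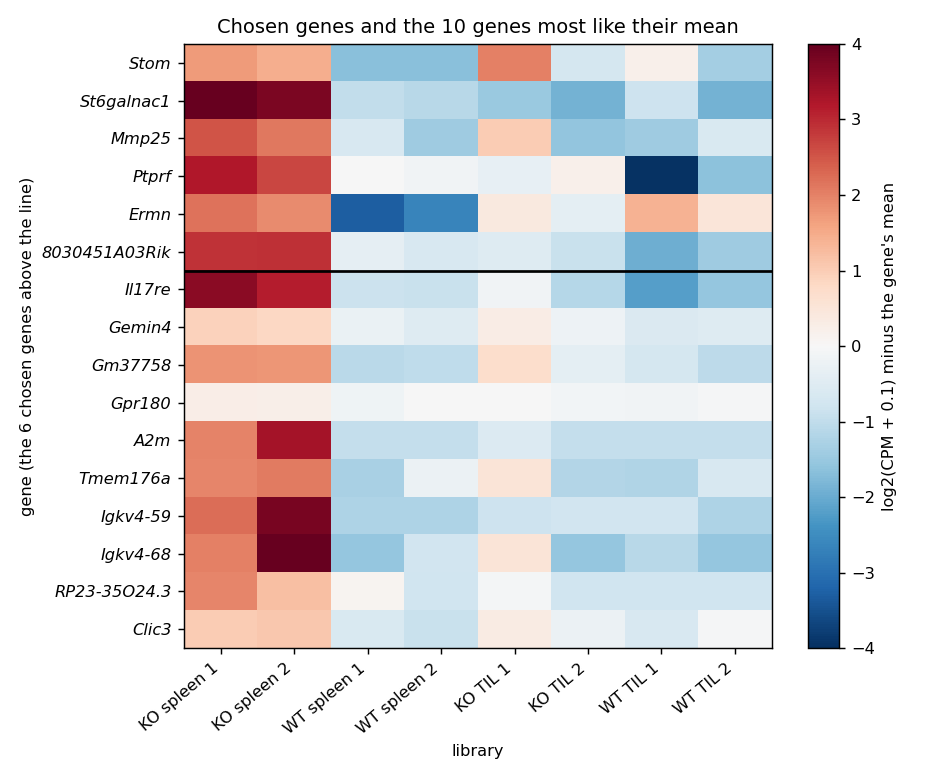
Log2(CPM + 0.1) minus the mean of the gene over the 8 libraries, for the 6 chosen genes (above the line) and the 10 genes with the highest r to their mean profile, with colors limited to 4 on either side. All rows lie above their mean in the KO spleen columns, Gpr180 by little, and the KO TIL 1 column is high for Stom, Mmp25 and Tmem176a but not for Ptprf or 8030451A03Rik.

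DESeq2 called 61 other genes as higher in splenic KO cells, and their TIL values put those of the 6 in context. Of these, 51 passed the TIL filter, and 28 (54.9%) had both KO TIL libraries above both WT TIL libraries, beside 18.0% of all genes tested. Another 4 were lower in both, beside 19.4% of all genes tested. A log2 fold change above 0 was found for 41, and the median was 1.49, against 0.04 over all genes tested. The splenic and TIL libraries are separate samples, but they may come from the same mice, which the labels do not say. In addition, the filter keeps a gene that is low in WT TIL only where KO TIL is high. DESeq2 called 13 of the 61 as higher in TIL and 0 as lower, beside 3.32% and 1.14% of its genes. EdgeR called 0 of the 51, of which 20 had an unadjusted p under 0.05 with a higher KO level and 0 with a lower. Of all 15935 genes tested, 1010 (6.34%) had such a p with a higher KO level and 563 with a lower. The 5 with the smallest splenic adjusted p were Il23r, Pcsk1, Il17re, Msc and Pde5a. Il23r, the receptor chain for IL-23, was at 57.6 and 34.4 CPM in KO spleen, 0.838 and 0.784 in WT spleen, 13.0 and 4.75 in KO TIL and 0.467 and 1.32 in WT TIL, where DESeq2 called it (log2 fold change 3.32) and edgeR did not (adjusted p = 0.301). Pcsk1, a prohormone convertase gene, was at 121 and 71.5 CPM in KO spleen and 2.03 and 0.178 in WT spleen, and lower in KO TIL, at 12.0 and 4.11 CPM, than in WT TIL, at 17.6 and 13.7 CPM. It thus had the same arrangement of groups as Ermn.

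**Figure D5:**
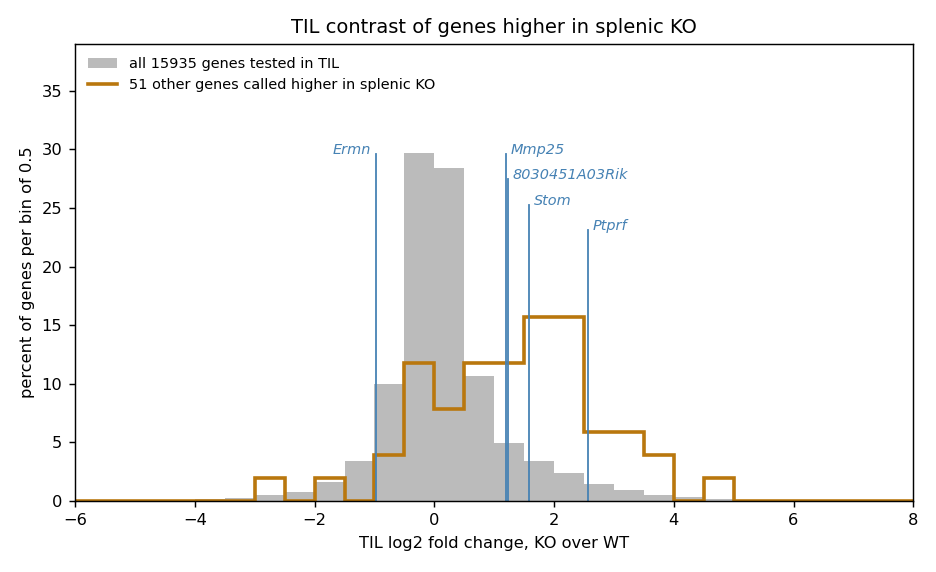
Percent of genes per bin of 0.5 in the TIL log2 fold change of KO over WT, for all 15935 genes tested (grey) and for the 51 other genes called higher in splenic KO (brown line), with blue lines at the 5 chosen genes tested. Ermn lies at -0.97 and the other 4 between 1.19 and 2.57.

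The families of the 6 genes, and the type 17 genes below, were then followed in TIL. EdgeR called 0 of 89 such genes tested, with 10 higher and 6 lower in KO at an unadjusted p under 0.05. At the same p, 1010 (6.34%) of all 15935 genes tested were higher and 563 were lower. Over all genes tested in TIL, 18.0% were higher and 19.4% lower in KO without overlap, with a median of 0.04. DESeq2 called 3.32% of its genes as higher and 1.14% as lower. The counts of the lists below stand beside these shares and were not tested against them. Of 8 other genes of the stomatin family and its membrane scaffold relatives, 7 had a value above 0 and 1 was higher in both KO libraries, with a median log2 fold change of 0.25. Erlin1, a scaffold of the endoplasmic reticulum, was at 1.24 (standard error 0.58). It was at 74.0 and 27.4 CPM in KO TIL and 27.5 and 15.4 CPM in WT TIL, so only KO TIL 1 lay above both WT libraries. In spleen the 8 genes had a median of 0.14, beside 3.24 for Stom.

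Of 13 other sialyltransferases, 3 were higher and 3 lower in KO TIL without overlap, beside 18.0% and 19.4% of all genes tested. Their median was 0.01. St3gal6, which caps galactose with sialic acid, was at 60.3 and 72.4 CPM in KO TIL and 24.1 and 12.4 CPM in WT TIL, and DESeq2 called it while edgeR did not (adjusted p = 0.265). St6galnac3, a relative of St6galnac1 that acts on O-glycans and gangliosides, was at 7.52 and 12.2 CPM in KO TIL and 15.5 and 29.7 CPM in WT TIL, yet at 27.7 and 35.5 CPM in KO spleen against 25.5 and 22.9 CPM in WT spleen. Of 14 genes of the O-glycan core and of sialic acid supply, 3 were higher and 3 lower without overlap. Galnt1, which starts O-glycan chains, had a log2 fold change of 1.03, and Galnt6, of the same family, had -1.08, each short of the threshold (adjusted p = 0.365 and 0.298 from edgeR's test).

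Of 11 other matrix metalloproteinases, 3 were higher and 2 lower in KO TIL without overlap, beside 18.0% and 19.4% of all genes tested. Their median was 1.21, against 0.04 over all genes tested. For Mmp2, Mmp8, Mmp12, Mmp14 and Mmp27, the macrophage-rich KO TIL 1 was highest in TIL and KO TIL 2 lay between the WT libraries. Mmp9, a secreted gelatinase, was at 18.1 and 9.65 CPM in KO TIL and 70.4 CPM in both WT TIL libraries, and at 5.75 and 4.97 CPM in KO spleen against 20.8 and 11.6 CPM in WT spleen, so it was lower in KO in both tissues. DESeq2 called Mmp9 in TIL, and edgeR did not (adjusted p = 0.209). Mmp13, a collagenase, was at 244 and 74.6 CPM in KO TIL and 72.1 and 21.4 CPM in WT TIL, and under 1 CPM in every splenic library, so in both TIL groups the library with more macrophage RNA had more of it. All 4 metalloproteinase inhibitor genes tested had values above 0, with Timp2 at 1.57 (standard error 0.58).

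Of 9 other receptor-type tyrosine phosphatases, 4 were higher and 1 lower in KO TIL without overlap, beside 18.0% and 19.4% of all genes tested. Their median was 1.23, against 0.04 over all genes tested. For Ptpre, Ptprg, Ptprm and Ptpro, only KO TIL 1 lay above both WT TIL libraries. Ptpra, an activator of Src kinases, was at 136 and 101 CPM in KO TIL and 28.0 and 22.7 CPM in WT TIL, a log2 fold change of 2.22 (standard error 0.32), and Ptprj, also known as CD148, was at 117 and 32.1 CPM in KO TIL and 10.5 and 9.55 CPM in WT TIL. DESeq2 called both and edgeR neither (adjusted p = 0.177 and 0.268). Of 11 partners of LAR, DESeq2 called 2 as higher, Ppfia1, the liprin that binds its inner part, and Sdc3, a syndecan. Ppfia1 was at 33.2 and 22.6 CPM in KO TIL and 9.09 and 7.52 CPM in WT TIL, and Sdc3 was at 777 and 86.7 CPM in KO TIL and 32.7 and 9.28 CPM in WT TIL, again with the higher value in the macrophage-rich library of each group. Of 6 genes of the ezrin, radixin and moesin group, 1 was higher and 1 lower without overlap, with a median of -0.05, and Slc9a3r1, their membrane adaptor, was at -0.66 (standard error 0.27).

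A list of 15 genes of type 17 cells was written with Il23r and Il17re already known to be high in splenic KO cells, so its splenic count is not independent. In spleen 7 of 13 tested genes were higher in KO without overlap and none was lower, and DESeq2 called 5. Of all genes tested in spleen, 16.4% were higher and 15.7% lower, and DESeq2 called 0.395% as higher. In TIL, 4 of the 13 genes were higher and 5 lower without overlap, beside 18.0% and 19.4% of all genes tested. Their median was -0.42. Rora, a nuclear receptor, was at 192 and 194 CPM in KO spleen against 134 and 108 CPM in WT spleen, but at 139 and 137 CPM in KO TIL against 287 and 378 CPM in WT TIL. Maf was at 49.1 and 16.1 CPM in KO TIL and 120 and 218 CPM in WT TIL, and DESeq2 called it lower while edgeR did not (adjusted p = 0.319).

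Genes next to the 6 were followed as well. Within 100 kb of their ends the files list 51 genes, of which 23 had a mean of at least 1 CPM. These had a median splenic log2 fold change of 0.02, 6 were higher and 2 lower in KO spleen without overlap, beside 16.4% and 15.7% of all genes tested, and DESeq2 called only Tnc in spleen. In TIL, 2 were higher and 7 lower without overlap, beside 18.0% and 19.4% of all genes tested. There DESeq2 called Srsf2, near St6galnac1, as higher (edgeR log2 fold change 2.58) and Kremen2, near Mmp25, as lower (-2.29). EdgeR called neither (adjusted p = 0.177 and 0.395). Tnc, which runs opposite to 8030451A03Rik, was at 4.17 and 7.14 CPM in KO spleen and 0.509 and 0.464 CPM in WT spleen, a log2 fold change of 3.53, close to the 3.55 of 8030451A03Rik. In TIL they parted: Tnc was at 17.7 CPM in WT TIL 2, its highest library, where 8030451A03Rik had 9 counts. Near Stom, Gsn, the actin-severing gelsolin gene 6094 bases away, was at 60.2 and 49.1 CPM in KO spleen and 52.0 and 32.8 CPM in WT spleen, and at 456 and 107 CPM in KO TIL against 166 and 92.8 CPM in WT TIL, with KO TIL 1 highest as for Stom.

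Of the 23 neighbours with a mean of at least 1 CPM, those other than Tnc had splenic log2 fold changes between -1.29 for St6galnac2 and 1.0 for Zscan10, near Mmp25. Among the lower ones, BC018473, 5652 bases from St6galnac1, was at 0.902 and 1.22 CPM in KO spleen and 0.359 and 0.357 CPM in WT spleen, a log2 fold change of 1.55, and was named after its values were seen. Near Ptprf, the sialyltransferase gene St3gal3 was higher in KO in both tissues, at 5.99 and 6.94 against 4.10 and 2.42 CPM in spleen and at 9.30 and 7.25 against 3.99 and 2.02 CPM in TIL. Near Ermn, Cytip, a regulator of leukocyte adhesion, was at 691 and 618 CPM in KO spleen against 548 and 511 CPM in WT spleen, and at 701 and 664 CPM in KO TIL against 979 and 1147 CPM in WT TIL. Cytip thus lay above WT in spleen and below it in TIL, as Ermn did, with a far smaller splenic log2 fold change of 0.30. St6galnac2, a relative of St6galnac1 within 100 kb of it, was at 0.601 and 1.47 CPM in KO spleen and 1.20 and 3.85 CPM in WT spleen, so its splenic groups overlapped.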

How the data were processed

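The authors trimmed reads with Trimmomatic 0.36, aligned them to GRCm38 with STAR 2.5.2b and counted unique reads within exons with featureCounts of Subread 1.5.2, and deposited raw counts per gene for 8 libraries. Strand use is not stated. A deposited table of normalized counts was not used. The 6 genes and all lists were chosen with earlier results of these data known. Genotypes were compared on the 4 libraries of a tissue with edgeR 4.0.16 (quasi-likelihood, TMM, filterByExpr; R 4.3.3), with Benjamini-Hochberg adjustment. A gene was called where its adjusted p was under 0.05 and its log2 fold change lay beyond 1 in either direction. The standard error is the size of the log2 fold change divided by the square root of F. DESeq2 1.42.0 was the main alternative. Others were fits on 8 libraries, DESeq2's size factors, other filters, a replicate block and leaving out each library. Fits were tested on simulated data. Named genes were all 6, neighbours within 100 kb with a mean of at least 1 CPM, the 10 most correlated genes, the 5 other splenic genes of smallest adjusted p, and up to 2 family genes per direction with the smallest TIL p and a mean of at least 1 CPM; some of these are given by counts only, and some genes of the lists are not reported here by name. Replicates of each group differed beyond sampling noise (chi-square divided by its degrees of freedom, 37.2 to 344).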

Additional observations from a re-analysis of the deposited data

Results flagged for a closer look

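With 2 libraries per group, no library was tested as an outlier. Of 70 genes named by the rule, 7 had both KO libraries on one side of both WT libraries in spleen and on the opposite side in TIL, a difference between tissues that was not tested. The same held for 5.44% of the 14787 genes tested in both tissues. Many of the 70 were picked on their splenic difference or, for family genes, on a small TIL p. Such a choice favors groups without overlap, so nothing is read from the 2 shares. Values are the TIL log2 fold change of KO over WT minus the splenic one. Among the 6 chosen genes this was Ermn, at -6.25. Pcsk1, chosen for its splenic difference, was at -7.37. Among neighbours and family genes with smaller splenic differences, Rora was at -1.94, St6galnac3 at -1.58, Cytip at -0.94 and Zfp213, near Mmp25, at -0.79. Ppfia1 alone went from lower in splenic KO to higher in KO TIL, at 1.90.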

How the results depend on the processing

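The number of genes called in TIL was 0 with edgeR, also with DESeq2's size factors, with a mean of at least 50 counts, without the fold change threshold and with any single library left out. It was 745 with DESeq2's Wald test, 911 with that test on 8 libraries, 135 with edgeR on 8 libraries, 728 with the replicate block and 1072 without the filter on low counts, and the cause was not tested. Of the 6 genes, these called only Ptprf, with DESeq2 on 8 libraries (log2 fold change 2.59). Same-numbered KO and WT TIL libraries had deviations correlated at 0.234. With only 2 pairs, this value cannot show whether they share more than a number. The replicate block left the direction of all 5 genes as it was (Stom 1.22, Mmp25 0.74, Ptprf 3.03, Ermn -0.97, 8030451A03Rik 1.25). Leaving out each library gave -0.35 to 2.56 for Stom, -0.63 to 1.96 for Mmp25 and -0.35 to 1.96 for the median of the 5 genes, with the lowest values, below 0, without KO TIL 1, where 1 library stands for its group and is assumed to vary like the other. With DESeq2's size factors, 2 of the 6 genes were again higher in both KO TIL libraries, and 9 of the 10 genes most like the 6 were the same. With a mean of at least 50 counts, Ptprf and 8030451A03Rik were not tested. Low counts limit St6galnac1, 8030451A03Rik and Ptprf in TIL, where Ptprf had 2 counts in WT TIL 1.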
